A study of Mus musculus with 12 samples.

Results

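In murine serum, 133 mouse miRNA entries were counted in depleted samples only. They were chosen from 874 mouse entries by 3 conditions: an accession number of MIMAT0005000 or higher, 0 counts in all 6 undepleted libraries, and at least 1 count in 2 or more of the 6 depleted libraries. Entries from MIMAT0016978 to MIMAT0017349 and the entries MIMAT0014943 and MIMAT0014944 were left out by the same rule. The serum came from 3 female athymic NCr nude mice (mice 1046, 1047 and 1069), which were 4 to 6 weeks old when they received an orthotopic xenograft of SH-SY5Y, an established human neuroblastoma cell line, beneath the capsule of the kidney. Each mouse was bled before this injection and again 2 weeks later, so every serum of the later time point came from a mouse with tumor cells. Each of the 6 sera gave a depleted and an undepleted RNA aliquot, for 12 libraries in 4 groups of 3. Depletion removed 5′ tRNA fragments (the 5′ part of a tRNA, which fills most of an undepleted library) with biotinylated DNA probes and streptavidin beads. How the RNA of a serum was divided between its aliquots is not described by the study for these mice. No mouse without tumor cells was sampled at the later time point among the samples used here, so tumor and elapsed time cannot be told apart.

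MiRNAs are short RNAs that guide Argonaute proteins to messenger RNAs, mainly through the seed near their 5′ end, and lower the output of their targets. They leave cells in vesicles and protein complexes and are stable in serum, where a small number of blood cell miRNAs make up most of the counts. MiRBase numbers mature miRNAs in order of registration, and the later numbers were largely given to miRNAs found by deep sequencing. The accessions were not paired with miRNA names in the tables used here, so members are given by accession, without a name or a known target. The only name given with its accession by the study is mmu-miR-16-5p (MIMAT0000527), a miRNA of red cells and many other cell types. It was counted 3074 to 228118 times in each of the 12 libraries.

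The members made up a very small part of the depleted libraries. Over the 6 depleted libraries they held 1654 counts, or 0.0167% of all mouse-annotated counts. The median member had 9 counts over all 6 libraries, with quartiles of 4 and 16 and a range from 2 to 73. On the scale of counts in 1000000 mouse-annotated counts of a library (ppm), the median of the mean levels was 0.932 ppm, and the highest was 7.01 ppm. For comparison, the median of all 874 mouse entries was 1.95 ppm and that of the 393 entries below MIMAT0005000 was 20.2 ppm. Lower medians were found in the other 243 entries of the accession range (0.281 ppm) and in the 103 entries from MIMAT0016978 to MIMAT0017349 (0.697 ppm). Low levels were thus not particular to the members, and the rule bears on them by leaving out entries with undepleted counts. The 10 most abundant members held 26.6% of the member counts. At the study's detection cut-off of 4 counts, 80 of the 133 members passed in at least 1 library, and 53 did not pass in any.

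The most abundant member was MIMAT0009433. It was counted 14, 17 and 3 times before injection in mice 1046, 1047 and 1069, and 7, 15 and 15 times after it, a mean level of 7.01 ppm ± 2.95 (SD, n = 6 libraries). The second, MIMAT0027789, had 9, 4 and 7 counts before and 2, 26 and 20 counts after injection (6.86 ppm ± 4.98, SD, n = 6). For both members the counts of the 2 time points overlapped. MIMAT0031422 had the highest total, with 8, 22 and 2 counts before and 7, 9 and 25 counts after injection (6.71 ppm ± 3.97, SD, n = 6). The differences between these 3 means were smaller than the SDs, which span 3 mice bled at 2 time points, and were not tested. MIMAT0019341 followed with 6, 7 and 13 counts before and 6, 2 and 0 counts after injection (4.44 ppm ± 4.91, SD, n = 6). MIMAT0014935 had 2, 4 and 2 counts before and 9, 15 and 12 counts after injection (4.13 ppm ± 2.72, SD, n = 6). In these last members the 2 time points did not overlap in ppm, in opposite directions. The members ranked 6 to 10 were MIMAT0029808, MIMAT0020607, MIMAT0027919, MIMAT0020636 and MIMAT0031404, with mean levels from 2.86 to 3.55 ppm.

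The absence of members from undepleted libraries was then set against depth, as a description, since these values chose the members. Undepleted libraries held 21235 to 97183 mouse-annotated counts, and depleted libraries 938706 to 2271549. A count of 0 in an undepleted library therefore allows a level of up to 30.9 to 141 ppm (3 counts of the total), and 0 of all 377955 undepleted counts allows up to 7.94 ppm. The mean level of every one of the 133 members in depleted libraries was under that limit. If both aliquots of a serum held a member at the same share, the undepleted libraries would give a median of 0.347 counts per member, summed over the 6 sera, and 61.3 counts over all members. By this estimate 11 members would reach 1 count and 0 would reach 3. The largest estimates were 2.96 counts for MIMAT0009433, 2.79 for MIMAT0031422, 2.29 for MIMAT0027789, 1.44 for MIMAT0014935 and 1.39 for MIMAT0029808. A lower level in undepleted RNA was thus not detectable at this depth for any single member. Intervals and limits here cover counting error only, because PCR reads without molecular identifiers are not independent molecules.

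The same estimate was made for all 227 entries of the accession range that were counted in 2 or more depleted libraries. Of the 115 entries with an estimate under 0.5 counts, 92 had no undepleted count. The share without one was 69.8% of 43 entries at 0.5 to 1 count, 38.1% of 21 at 1 to 2 counts and 23.1% of 13 at 2 to 3 counts. Of the 35 entries with an estimate of 3 or more counts, 0 lacked undepleted counts. Their undepleted counts summed to 1426, compared with an estimate of 2366, so that in total they fell short of equal shares. The entries with the most counts weigh most in these sums, and the shortfall was not evaluated entry by entry. Among older entries (below MIMAT0005000) the shares were 89.1% of 46, 58.5% of 41, 26.5% of 34 and 7.69% of 13 in the same bins. In total these entries of 2 or more depleted libraries had 373757 undepleted counts, compared with an estimate of 372718. The closeness of these 2 sums was largely fixed in advance. Over all entries the estimate equals the undepleted total, and older entries held a mean of 985730 ppm before and 987062 ppm after injection in depleted libraries. At estimates above those of any member, 14.3% of 21 older entries at 3 to 5 counts and 1.87% of 214 at 5 or more had no undepleted count. Among entries from MIMAT0016978 to MIMAT0017349 the shares were 75.8% of 33, 78.6% of 14, 66.7% of 3 and 100% of 1 in the first 4 bins. Below 3 counts the share fell from bin to bin in the members' range and in the older entries, and not in this last list.

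**Figure D1:**
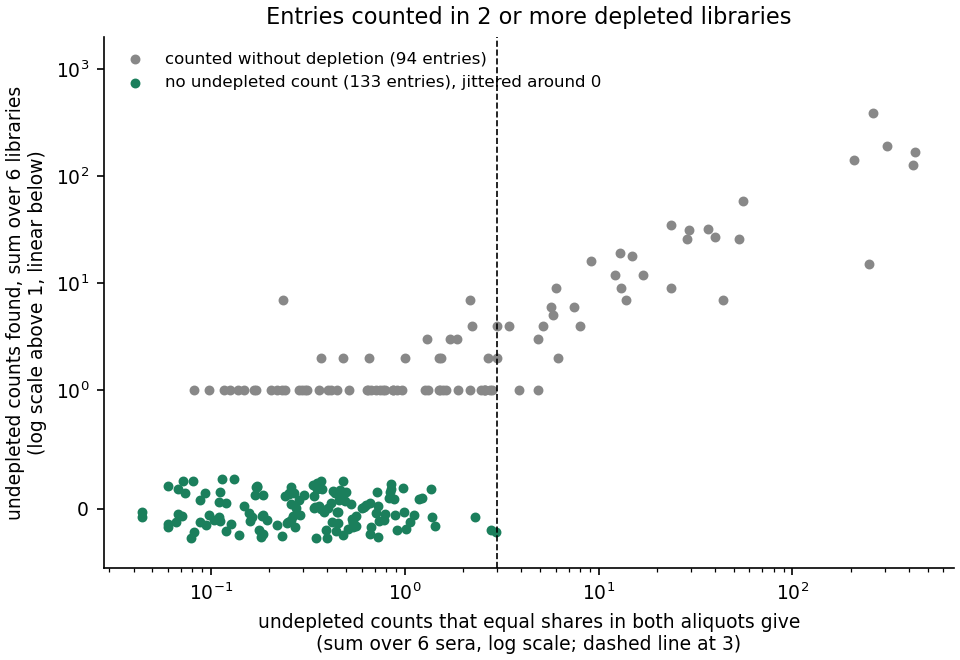
Undepleted counts found (sum over 6 libraries) against the undepleted counts that equal shares in both aliquots give (sum over 6 sera, log scale) for the 227 entries of the accession range counted in 2 or more depleted libraries; each point is an entry. The 133 members lie at 0, left of the dashed line at 3 counts, and all 35 entries to the right of it were counted without depletion.

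Of the entries just outside the rule, the 3 most abundant with exactly 1 undepleted count had more depleted counts than any member, whose highest total was 73. The most abundant was MIMAT0014938, with 19, 19 and 8 depleted counts before and 19, 32 and 31 after injection, or 128 in all. MIMAT0027820 and MIMAT0027924, with 97 and 83 depleted counts, also had 1 undepleted count each. At the other threshold, MIMAT0025146 was counted 15 times in the depleted serum of mouse 1047 before injection and in no other library. MIMAT0012773 and MIMAT0014854 had 14 and 12 counts, both in mouse 1069 after injection only. In all, 48 entries had exactly 1 undepleted count with counts in 2 or more depleted libraries, and 134 had no undepleted count and counts in 1 depleted library. The members were 35.4% of the 376 entries of the range.

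Members were drawn from most of the accession range. Of the 133, 57 had numbers from MIMAT0027000 to MIMAT0028999, where they were 37 of 101 and 20 of 54 entries per block of 1000 numbers. The MIMAT0014000 block gave 19 members of 62 entries, and the MIMAT0009000 block 14 of 31. In blocks with at least 5 entries, members were between 26.3% (MIMAT0022000) and 47.6% (MIMAT0020000) of the entries. Among the members there were 14 pairs with consecutive accession numbers, and the number among other entries of the range was not determined.

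Next, reproducibility between sera was evaluated. Of the 133 members, 50 were counted in 2 depleted libraries, the fewest that the rule allows, 20 in 3, 23 in 4, 24 in 5 and 16 in all 6. Sera of all 3 mice held 70 members, sera of 2 mice 53, and 10 members were counted in both sera of a single mouse only. The members of 2 libraries had a median total of 3 counts and a highest total of 13. Between 2 depleted libraries, the shared members were 46.5% to 79.2% of either library's members, with a median of 62.1% over 15 pairs of libraries. For the 3 pairs from the same mouse the median was 59.3%, and for the 12 pairs from different mice 62.5%. The 2 sera of mouse 1046 had 57 members in common, those of mouse 1047 had 45 and those of mouse 1069 had 40. These shares depend on depth, because a member of few counts is easily missed. The rule also raises them, since every member had to be counted in at least 2 depleted libraries. It left out 134 entries of the range with no undepleted count and counts in 1 depleted library.

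The 16 members counted in all 6 depleted libraries held 31.4% of the member counts, and their totals ran from 9 to 73 counts. Even in this group the levels of a member varied widely between sera. The highest ppm was 3.25 to 13.3 times the lowest, with a median of 6.49. MIMAT0020607 had 3, 7 and 2 counts before and 5, 11 and 3 after injection, so that both time points overlapped. Unevenness was also seen over all members, since in 52 of them a single library held more counts than the other 5 together, including 12 members of 10 or more counts. The variance between depleted libraries was a median of 1.77 times that expected from counting error at the libraries' totals (mean 2.27). In 131 older entries with totals from 2 to 73 counts and counts in 2 or more depleted libraries, the median was 2.67 (mean 3.30), and 40 of them (30.5%) were counted in all 6 depleted libraries. Those entries had a median total of 20 counts, above that of the members.

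**Figure D2:**
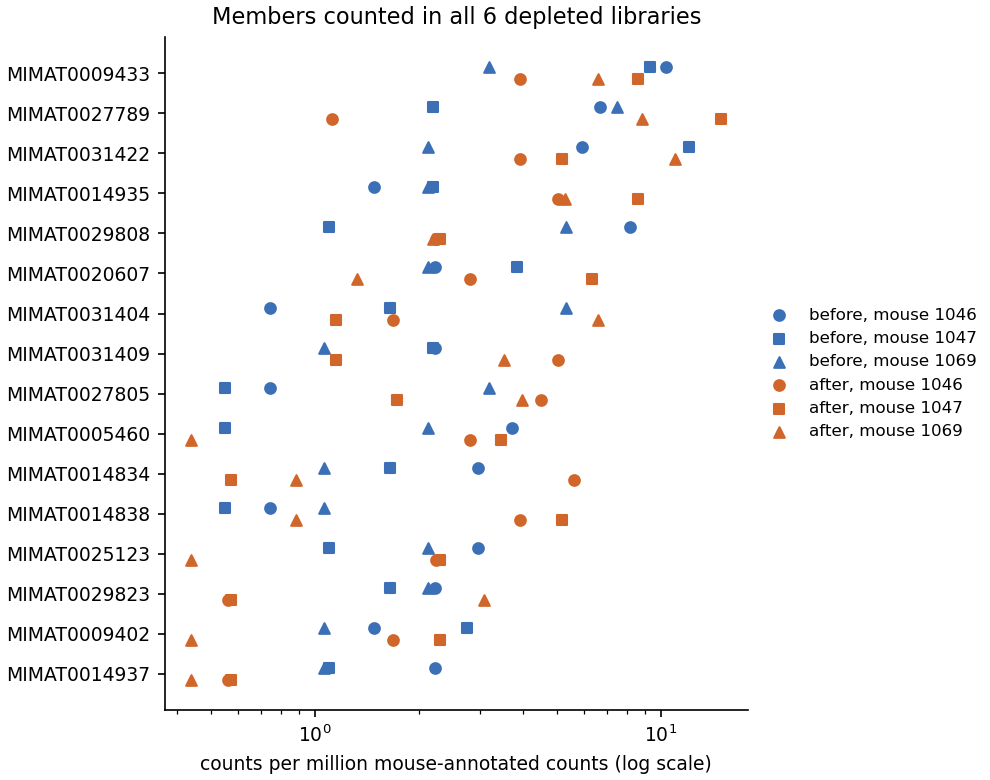
Level of the 16 members counted in all 6 depleted libraries, in ppm of the mouse-annotated counts (log scale), with members in order of mean level; each symbol is a library (blue before, orange after injection, shape by mouse). Levels of a member spread over 3.25 to 13.3 times, and blue and orange overlap in all rows except those of MIMAT0014935 and MIMAT0014937.

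**Figure D3:**
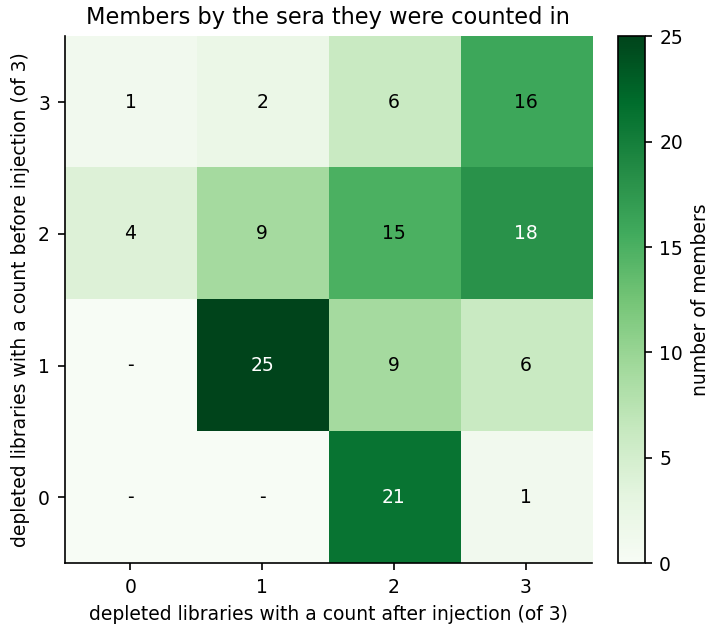
Number of members by how many of the 3 depleted libraries after injection (horizontal axis) and of the 3 before injection (vertical axis) they were counted in; dashes mark combinations that the rule does not allow. The largest cells are 25 members counted in 1 library at each time point and 21 counted in 2 libraries after injection and none before.

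More members were counted after injection than before it, in libraries that were also deeper. Before injection, depleted libraries of mice 1046, 1047 and 1069 listed 72, 76 and 59 members, and after injection 96, 79 and 86. The means were 69.0 ± 8.9 and 87.0 ± 8.5 members (SD, n = 3 each), and the groups did not overlap. The total counts of the libraries were 1.41 times higher after injection. At the total of the smallest depleted library, 938706 counts, the expected numbers were 61.5, 59.0 and 59.0 before and 77.6, 63.8 and 64.6 after injection, which lowered the mean difference from 18 to 8.84 members. Members counted at both time points numbered 106, while 22 (16.5%) were counted after injection only and 5 (3.76%) before injection only. These 22 and 5 members met the rule of 2 or more depleted libraries through 1 time point only, and libraries after injection were deeper. Selection thus bears on all these numbers, also on those at the smallest depth, since members were chosen at full depth. Of all 672 mouse entries counted in 2 or more depleted libraries, 37 (5.51%) were counted after injection only and 11 (1.64%) before injection only. Those 672 include entries of far higher counts, such as mmu-miR-16-5p. The number of all mouse entries listed was also higher after injection, 592 to 614 compared with 546 to 563 per depleted library. No test was made of these numbers, because the members were chosen with results known.

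The summed level of the members was 148, 139 and 162 ppm before and 194, 175 and 176 ppm after injection, in the same order of mice. The 95% exact (Clopper-Pearson) intervals of the separate libraries reached from 122 to 190 ppm before and from 156 to 216 ppm after injection. The means were 149 ± 12 and 182 ± 11 ppm (SD, n = 3 each), a ratio of 1.22. This difference depended on the scaling. With median-of-ratios size factors in place of total counts, the summed levels were 165, 173 and 150 before and 172, 157 and 163 after injection, so that the groups overlapped and the means differed by 1.20 ppm. Between these scalings all log2 changes after injection shift by -0.27. The level of mmu-miR-16-5p moved with the time point, from 108496 to 125973 ppm before to 56241 to 77115 ppm after injection in depleted libraries, and its part in the difference between scalings was not tested. The summed level of the other 243 entries of the accession range was 1.34 times higher after injection in ppm, and that of the entries from MIMAT0016978 to MIMAT0017349 was 1.07 times higher.

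**Figure D4:**
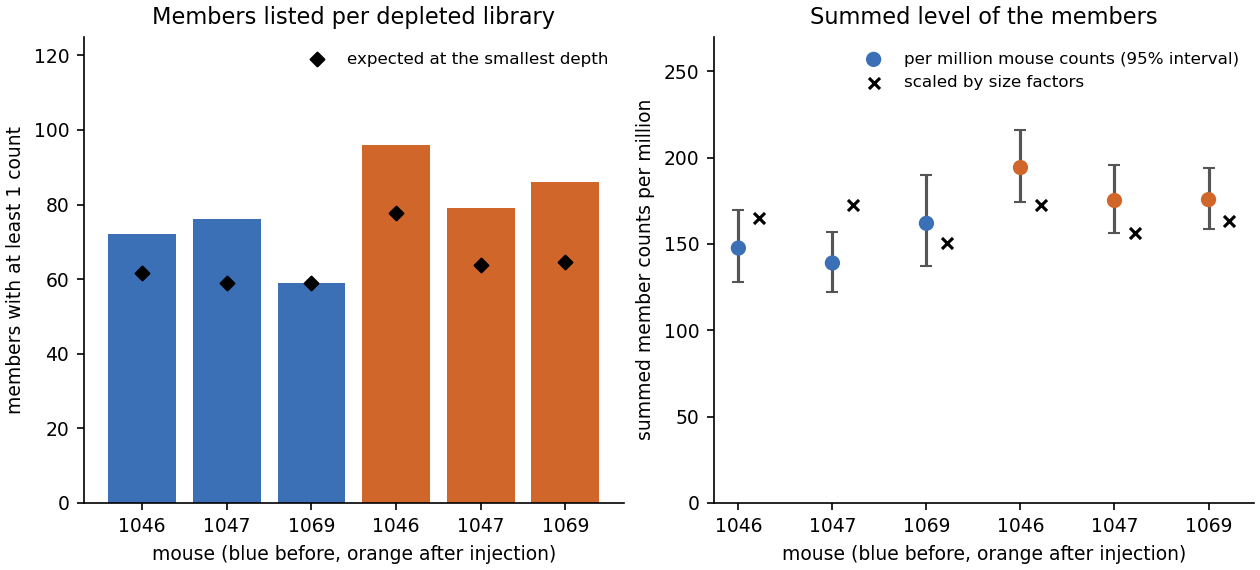
Left, number of members with at least 1 count in each depleted library (bars) and the number expected at the smallest depth (diamonds). Right, summed member counts in ppm of the mouse-annotated counts with 95% exact intervals (circles) and the same scaled by size factors (crosses). Bars and circles are higher after injection (orange) than before (blue), whereas the crosses of both groups overlap.

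To investigate whether single members changed after tumor growth, depleted libraries after injection were compared with those before it in DESeq2, fitted on all 861 mouse entries with counts in depleted libraries. Entries were called changed at 2-fold or more with an adjusted p-value under 0.05, and 0 of 133 members were. In the whole fit 33 of 310 tested entries were changed (10.6%). Adjusted p-values were given to only 3 members, because DESeq2 sets entries of low mean aside and the lowest mean that was tested was 10.6 normalised counts. The 3 members, MIMAT0009433, MIMAT0031422 and MIMAT0027789, had log2 fold changes of -0.38, -0.22 and 0.22 (standard errors 0.51, 0.52 and 0.52), and the smallest adjusted p in DESeq2 was 0.657. In edgeR's quasi-likelihood test, where all 133 members were tested, 0 were changed against 4.65% of all entries, and the smallest adjusted p of a member was 0.175. Before adjustment, 1 of 133 members had p under 0.05 in DESeq2, compared with 10.8% of all entries in the fit. In edgeR 9 members (6.77%) did, compared with 14.4% of all entries. These 9 include MIMAT0028089, MIMAT0005293, MIMAT0020628, MIMAT0009421 and MIMAT0028021, which were counted at 1 time point only. They met the rule only through that time point, so their edgeR values are no support for a change. The adjusted p of 0.175 in edgeR was that of MIMAT0028089. The median log2 fold change of the members in DESeq2 was 0.02 and that of all entries 0.01, with 72 members above 0 and 61 below.

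At these counts large differences may go undetected, and a p-value over the threshold does not show that a member stayed the same. The 2 members with the smallest unadjusted p in each direction are given as values. MIMAT0027822 had 0, 2 and 0 counts before and 5, 12 and 9 counts after injection (log2 fold change 0.88, standard error 0.50, unadjusted p = 0.0768, DESeq2). MIMAT0005293 was not counted before injection and had 2, 7 and 5 counts after it (0.64, standard error 0.42, unadjusted p = 0.125, DESeq2). Its 14 counts after injection gave a level 3.31 times that of 3 counts in the group before. This ratio leaves out the counting error of the 14 counts, so it is no lower bound. In the other direction, the counts of MIMAT0019341, given above, corresponded to -1.10 on the log2 scale (standard error 0.52, unadjusted p = 0.0365, DESeq2), the only member with an unadjusted p under 0.05. Without mouse 1069, the mouse with its highest count before and no count after injection, this value was -0.33, and with the mouse as a block in the fit its unadjusted p was 0.108 in DESeq2, so that no member was left under 0.05. MIMAT0028443 had 3, 3 and 4 counts before and 1, 0 and 0 after injection (-0.84, standard error 0.46, unadjusted p = 0.0706, DESeq2). The prior of DESeq2 pulls such values towards 0, and without it they were 3.02, 3.86, -2.51 and -4.06, in the order given. The values of MIMAT0027822, MIMAT0005293 and MIMAT0028443 were smaller in size whichever mouse was left out. The smallest were 0.42 for MIMAT0027822 without mouse 1069, 0.24 for MIMAT0005293 without mouse 1047 and -0.28 for MIMAT0028443 without mouse 1069. All fits without a mouse kept the prior and had fewer libraries, so its pull and dependence on a mouse cannot be told apart.

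All 3 libraries after injection lay above all 3 before it, in ppm, for 10 members (7.52%), compared with 14.4% of all entries in the fit. They lay below for 5 members (3.76%), compared with 5.23% of all entries. Both shares are under those of all entries, but such a separation needs a count in all 3 libraries of a time point. The 50 members counted in only 2 depleted libraries could not reach it. These shares are therefore not read as a result about the members. With size factors the numbers were 7 members above (5.26%, compared with 9.99% of all entries) and 6 below (4.51%, compared with 8.48%). MIMAT0005293 was the only member (0.752%) counted in all 3 sera after injection and in none before. MIMAT0020628 was the only one of the opposite kind (0.752%), with 1, 3 and 2 counts before and 0 after injection. Its level before was 2.82 times that of 3 counts in the group after, again no lower bound. Both passed the rule only through the time point at which they were counted. Entries outside the members had the same patterns, such as MIMAT0003491 (5, 6 and 1 counts after injection only) and MIMAT0003182 (5, 4 and 3 before only). The share of all entries with these patterns was not determined. By mean ppm, 83 members were higher and 50 lower after injection (62.4% higher), compared with 58.9% of all entries. With size factors 74 were higher and 59 lower (55.6% higher), compared with 51.6% of all entries.

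**Figure D5:**
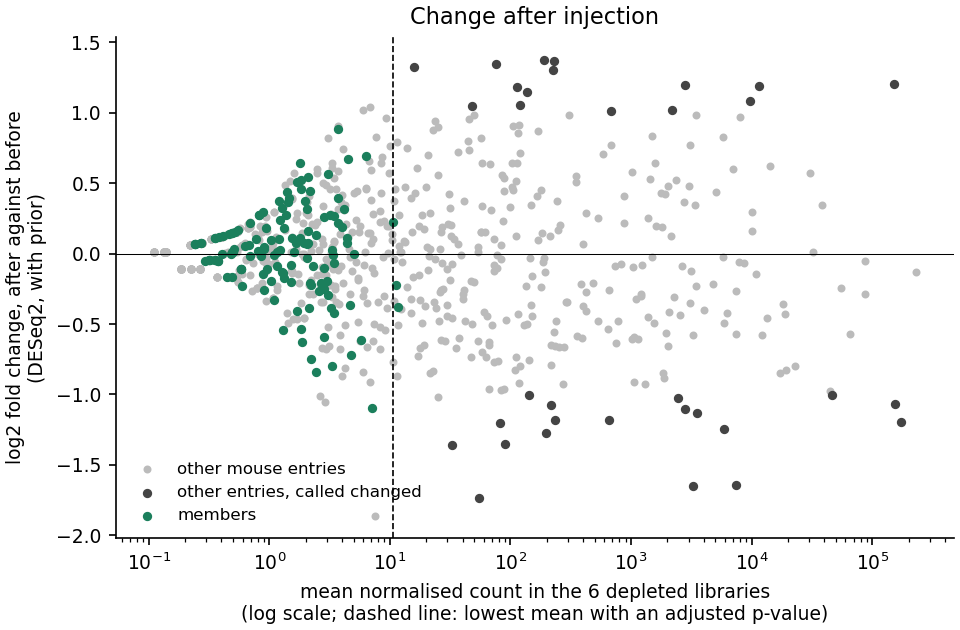
Log2 fold change after against before injection (DESeq2, with prior) against the mean normalised count in the 6 depleted libraries (log scale) for 861 mouse entries; green points are the members and dark points the 33 entries called changed. Members lie between the arms of a funnel that the prior draws towards 0, and 3 of them reach the lowest mean that was tested (dashed line at 10.6).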

How the data were processed

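Raw read counts per mature mouse miRNA were deposited by the authors as 1 table per library, in which a miRNA without reads is not listed and was taken as 0. Per the study's methods, the authors trimmed adaptors with Cutadapt (version 1.8.1 in the submitters' processing notes), filtered on quality, mapped with Bowtie (1.1.2) without mismatches and matched coordinates to miRBase on GRCm38/mm10. The treatment of reads with several matching loci is not given in the sources used here, and members that share sequence with another miRNA are therefore uncertain. Human tables were not used here.

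Members, lists and tests were chosen with earlier results of these data known. Depleted libraries were fitted with DESeq2, the tool that the study names without its settings, here in version 1.42.0 (R 4.3.3). The settings chosen here were time point as the only term, median-of-ratios size factors, Wald test with prior, independent filtering, Benjamini-Hochberg adjustment over all mouse entries. edgeR 4.0.16 was an alternative. Depleted and undepleted libraries were not tested against each other, since that contrast chose the members. Python 3.11.15 (SciPy 1.17.1, NumPy 2.4.6) was used for all other values. Members were named by level, smallest unadjusted p, presence at 1 time point and estimated undepleted count; the third member by p in each direction is left out, as are groups by seed and cell type markers other than mmu-miR-16-5p, because accessions were not paired with names. Both sera of a mouse share its number in the labels; the deviations of its depleted libraries from their group means correlated with r of -0.42, 0.10 and -0.14 over 213 miRNAs in mice 1046, 1047 and 1069.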

Additional observations from a re-analysis of the deposited data

How the results depend on the processing

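The number of members was 83 when counts in 3 depleted libraries were required and 45 when at least 4 counts in 2 depleted libraries were required, compared with 133. It was 181 with up to 1 undepleted count allowed, 113 to 117 when a mouse was left out, and 137 without the smallest undepleted library, an alternative chosen after seeing the data. The mean summed level differed by 32.2 ppm between time points, by 1.20 ppm with size factors and by 24.96 to 41.4 ppm when a mouse was left out. The number of members per library differed by 18, by 8.84 at the smallest depth, by 19.7 at a cut-off of 4 counts and by 13.5 to 25.5 when a mouse was left out. The number of changed members was 0 in each fit, but all 133 were tested only with edgeR and without independent filtering (smallest adjusted p 0.400). With TMM factors 2 members were tested, without the prior 4, and with the fold cut-off dropped 3. With a filter of 4 counts in 3 libraries, and with each mouse left out (0 to 0 changed), 0 were tested, so these fits say nothing about the members. With the mouse as a replicate block 4 were tested and 0 changed, and members with an unadjusted p under 0.05 went from 1 to 0. Of the 4 members given by their p, none changed direction under an alternative that kept it in the fit. Depth limits these comparisons: 53 of 133 members never reached 4 counts in a library.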

Other observations

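The opposite pattern was rare in the same accession range, but depleted libraries were far deeper (938706 to 2271549 counts, compared with 21235 to 97183). With equal shares in both aliquots few such entries would be found at these depths, so their rarity is a description only. Of the 376 entries, 8 had an undepleted count and no depleted count, each in 1 undepleted library, and 0 were counted in 2 or more undepleted libraries without a depleted count. The remaining 101 entries with undepleted counts were also counted in depleted libraries.

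Over all 874 mouse entries, 256 (29.3%) had no undepleted count and counts in 2 or more depleted libraries, the 133 members included. This was 20.9% of the 393 entries below MIMAT0005000 and 39.8% of the 103 entries from MIMAT0016978 to MIMAT0017349, compared with 35.4% of the accession range of the members.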
